A study of Mus musculus with 45 samples.

Results

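The 10 heat shock protein genes described here, of the 34994 genes in the deposited tables, were followed in mouse embryonic forelimb cultures exposed to bisphenol S (BPS). They were chosen by name: Hspa1a, Hspa1b, Hspa8, Hsph1, Dnajb1, Hsp90aa1, Hsp90ab1, Hspb1, Hspd1 and Hspe1. All 10 passed the filter on low counts in every comparison. The set was labelled cytosolic, which holds for the proteins of 8 of them. Hspd1 and Hspe1 encode HSP60 and HSP10, the chaperonin pair that folds proteins inside mitochondria.

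Heat shock proteins are molecular chaperones that bind unfolded polypeptides and help them reach or regain their folded state. In the cytosol, HSP40 proteins deliver clients to HSP70, HSP110 proteins exchange its nucleotide, and HSP90 finishes the folding of kinases, steroid hormone receptors and other signalling proteins, while small heat shock proteins hold unfolded chains for later refolding. Some of these genes are transcribed at all times and others mainly after proteotoxic stress, when heat shock factor 1 (HSF1) binds heat shock elements, arrays of alternately oriented GAA units, in their promoters.

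The cultures came from CD1 mouse embryos on gestation day 13. Each bottle received vehicle (DMSO), 10 µM BPS or 50 µM BPS, a common substitute for bisphenol A, and RNA was taken after 3, 24 or 48 h. This gave 9 groups of 5 libraries, 45 in all, and every group shared the same medium, the same gassing with enriched oxygen and the same genotype, with no transgene. Limbs were pooled, limbs of male and female embryos shared a culture, and for the 5 libraries of 50 µM at 48 h the strain is labelled CD2 to CD6, treated here as CD1. Whether the 5 libraries of a group came from separate cultures is not stated, so p-values cover only the spread between them, possibly technical.

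Libraries held 15.2 to 23.1 M reads counted on genes (median 18.2 M). Levels are counts per M reads (CPM), and each comparison was tested with edgeR's quasi-likelihood test, two-sided, with Benjamini-Hochberg adjustment over all genes tested. A call means an adjusted p below 0.05. The forelimb markers Tbx5 and Prrx1 averaged 301.9 and 548.4 CPM in DMSO libraries at 3 h, against 22.9 CPM for the hindlimb marker Tbx4 and 6.27 CPM for Pitx1, so the defining markers of the labelled tissue were present. The tissue is a mixture of cell types, and in these bulk libraries fewer cells of a type and less RNA per cell cannot be told apart.

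The promoters are shown first, with a search for pairs of heat shock element units. Of the 10 genes, 7 were matched by symbol to 10 windows of the RefSeq promoter table (build GRCm38.p6, the assembly called mm10), and Hspa8, Hsp90aa1 and Hsp90ab1 were not matched. The 250 bases before each start were searched for the unit pairs GAANNTTC and TTCNNGAA, each of which reads the same on both strands. A pair was found in 7 of the 10 windows, from 6 of the 7 genes, and in 12.8% of all 32851 windows of this length in the table. The 7 windows are not separate observations. Those of Hspa1a and Hspa1b are near-identical, those of Hspd1 and Hspe1 hold the same bases, and those of Hsph1 hold the same site. A match is a description of letters, not of binding. Only exact pairs were searched, so a window without a match, or the rest of one with a match, may hold imperfect units.

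The inducible HSP70 genes Hspa1a (ENSMUSG00000091971, chr17:34969190-34972156, minus strand) and Hspa1b (ENSMUSG00000090877, chr17:34956436-34959238, minus strand) had 1 pair each. Their upstream windows, chr17:34972157-34972406 and chr17:34959239-34959488 on the minus strand, were 98.8% identical, with the pair in capitals starting at base -104 of both.
Hspa1a: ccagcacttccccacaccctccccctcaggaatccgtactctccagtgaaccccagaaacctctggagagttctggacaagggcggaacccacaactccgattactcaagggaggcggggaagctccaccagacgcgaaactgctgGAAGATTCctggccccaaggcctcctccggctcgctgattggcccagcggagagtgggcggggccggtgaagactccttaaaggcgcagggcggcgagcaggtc
Hspa1b: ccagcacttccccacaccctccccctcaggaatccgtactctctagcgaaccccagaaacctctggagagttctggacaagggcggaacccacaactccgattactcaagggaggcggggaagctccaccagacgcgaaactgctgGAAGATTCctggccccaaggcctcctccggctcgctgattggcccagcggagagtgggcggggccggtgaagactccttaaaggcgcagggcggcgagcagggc
The coding sequences, taken as the longest open reading frame of the GENCODE M21 transcripts, were 99.4% identical, with a longest shared run of 638 bases. How reads that fit both copies were counted is not given in the sources used here, so the split of counts between Hspa1a and Hspa1b is uncertain.

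Hspb1, which encodes the small heat shock protein HSP25 (HSP27 in human; ENSMUSG00000004951, chr5:135887919-135889563, plus strand), carried 2 pairs, starting at bases -117 and -97 of the window chr5:135887669-135887918. It is shown because Hspb1 rose most with culture time.
Hspb1: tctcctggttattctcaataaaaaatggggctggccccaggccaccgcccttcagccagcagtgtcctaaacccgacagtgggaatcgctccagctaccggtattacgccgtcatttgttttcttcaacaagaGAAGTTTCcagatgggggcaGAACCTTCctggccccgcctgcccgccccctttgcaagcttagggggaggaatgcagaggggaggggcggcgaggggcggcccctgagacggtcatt
Hspd1 (ENSMUSG00000025980, chr1:55077835-55088243, minus strand) and Hspe1 (ENSMUSG00000073676, chr1:55088132-55091307, plus strand) lie head to head and overlap by 112 bases. A run of 4 units at chr1:55088059-55088076, upstream of Hspe1 and inside the Hspd1 gene given above, was read in the window of Hspe1 and in that of the more internal of 2 Hspd1 starts. It is given here on the strand of Hspe1 within the 30 bases chr1:55088053-55088082.
Hspe1: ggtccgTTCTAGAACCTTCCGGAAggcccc
A run of 3 units (GAANNTTCNNGAA or its reverse complement) stood in 0.466% of all windows, and among the genes here in these windows of Hspe1 and Hspd1. Hsph1 held 1 pair in either of its windows, at a place inside its gene model. Dnajb1 held 0 pairs in either of its windows, of which chr8:83608298-83608547 lies inside the gene.

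Transcript levels spanned 875-fold between the highest and the lowest of the 10 genes. Per kb of gene model, and averaged over the 45 libraries, Hsp90ab1, the constitutive HSP90, stood highest at 822.6 CPM per kb. It was followed by Hspa8, the constitutive HSP70, at 189.1, by the mitochondrial Hspd1 at 104.0 and Hspe1 at 85.9, and by Hsp90aa1, the stress-responsive HSP90, at 83.9 CPM per kb. Hspb1 stood at 33.9, the HSP40 gene Dnajb1 at 21.2 and the HSP110 gene Hsph1 at 11.6 CPM per kb. The inducible HSP70 genes had the lowest counted levels, Hspa1b at 3.26 and Hspa1a at 0.94 CPM per kb. Hspa8 was 45-fold above their sum as counted. If reads that fit both copies were left out, both levels are too low, and the 45-fold and 875-fold ratios too high. Hsp90ab1 was 9.8-fold above Hsp90aa1 per kb. The mitochondrial partners Hspd1 and Hspe1 differed by a ratio of 1.21 per kb, and Hspe1 and Hsp90aa1 lay within the spread of their libraries.

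**Figure D1:**
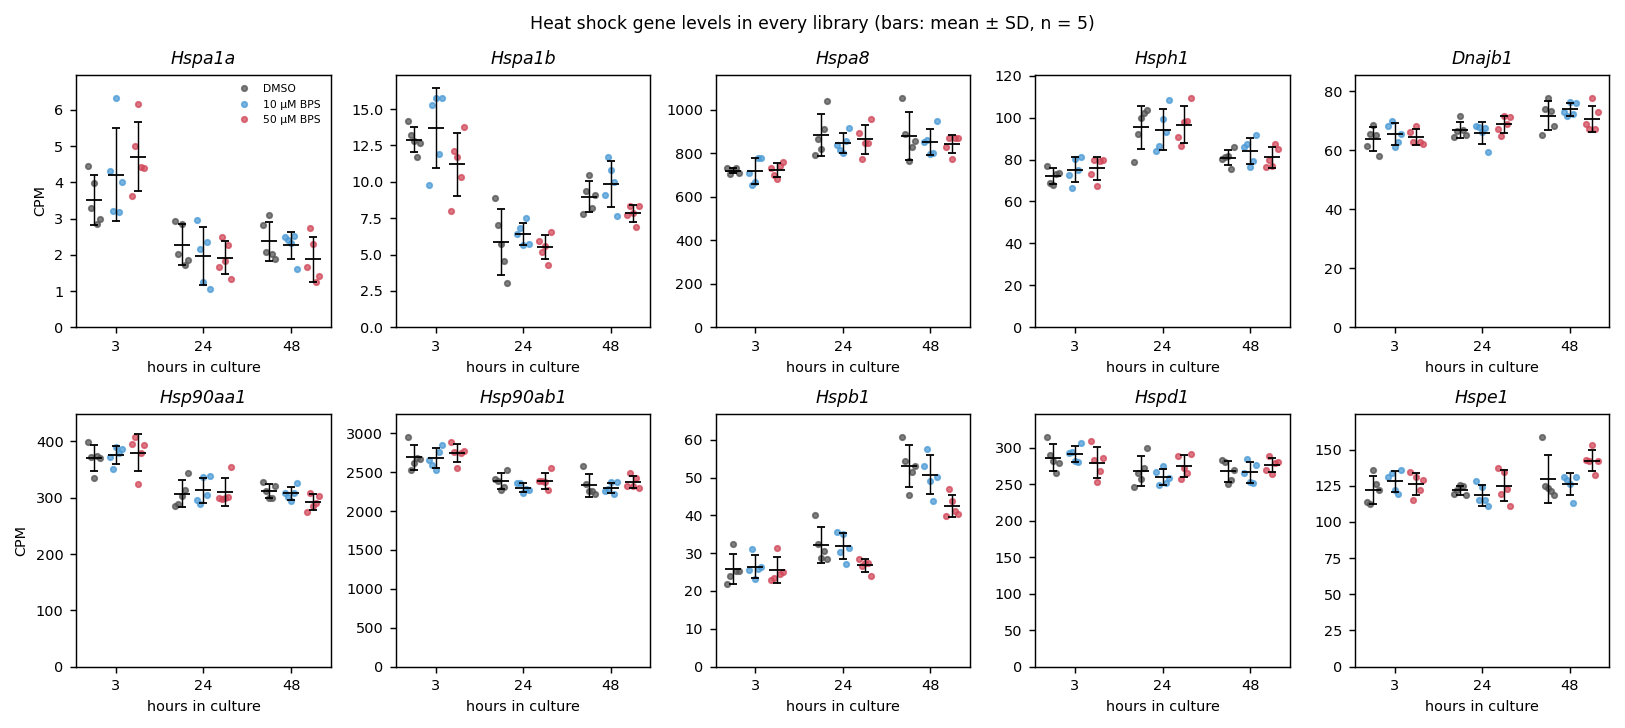
CPM of each gene (y axis, from 0) against hours in culture (x axis), with 5 libraries per group as points and the mean ± SD as bars, in DMSO, 10 µM and 50 µM order. Hspa1a and Hspa1b were highest at 3 h, Hspb1 at 48 h, and the doses of 1 time lay over each other for most genes.

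Spread between libraries set what could be seen. The within-group coefficient of variation was 26.7% for Hspa1a, which had 20 to 129 raw reads per library, 17.6% for Hspa1b with 56 to 347 reads, and 11.3% for Hspb1. It lay between 4.6% and 8.3% for the other 7 genes. Over the 9 groups, the highest group mean was 2.51 times the lowest for Hspa1a, 2.49 times for Hspa1b and 2.08 times for Hspb1. For Hspd1 that ratio was 1.12, the smallest of the 10.

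BPS at 50 µM moved none of the 10 genes past the threshold. At 3 h, 0 of 10 were called, where 0.0538% of 16722 genes were called. At 24 h, 0 of 10 were called, against 0.375% of 16512 genes. At 48 h, 0 of 10 were called, against 1.00% of 16663 genes. At an unadjusted p below 0.05, edgeR gave 1 gene at each time, Hspa1a at 3 h and Hspb1 at 24 and 48 h, as it did 1334, 2048 and 2157 of all genes tested. DESeq2 called 0, 0 and 1 of the 10 at 3, 24 and 48 h, beside 41, 270 and 426 of all genes. The median log2 fold change of the 10 genes was 0.024, 0.013 and -0.042 at 3, 24 and 48 h, beside 0.004, 0.003 and -0.004 over all genes tested. These comparisons share their DMSO libraries with those of 10 µM at the same time.

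**Figure D2:**
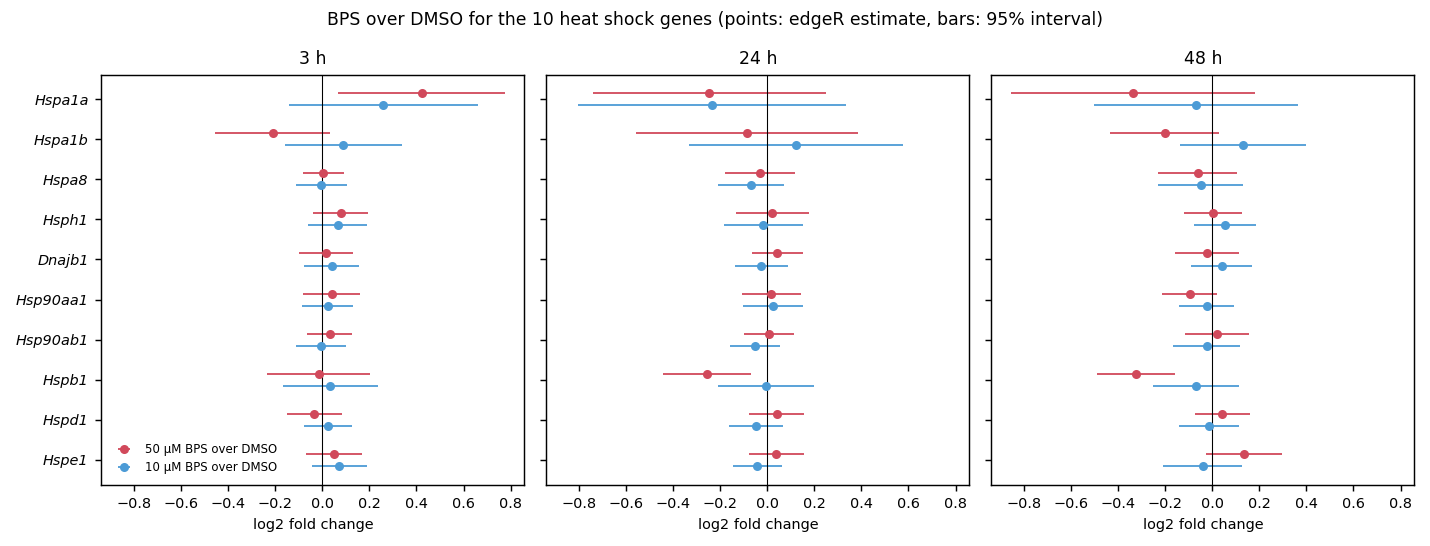
Log2 fold change over DMSO (x axis) for each gene (y axis) at 3, 24 and 48 h, with 50 µM BPS above 10 µM BPS, points for the edgeR estimate and bars for the 95% interval. Intervals were widest for Hspa1a and Hspa1b, and those of Hspb1 at 50 µM lay below 0 at 24 and 48 h without an adjusted p below 0.05.

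Leaving aside Hspa1a, Hspa1b and Hspb1, the 95% intervals of the log2 fold change at 50 µM over DMSO lay between -0.15 and 0.20 at 3 h, between -0.18 and 0.18 at 24 h and between -0.23 and 0.30 at 48 h. These 7 genes are Hspa8, Hsph1, Dnajb1, Hsp90aa1, Hsp90ab1, Hspd1 and Hspe1. The unadjusted intervals therefore leave room for changes of this size, and the missed threshold does not show that 50 µM and DMSO cultures were alike.

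Hspa1a, an inducible HSP70 gene, had its largest estimate at 3 h. It had 3.61, 4.99, 6.16, 4.41 and 4.40 CPM in 50 µM libraries, against 4.44, 3.29, 3.98, 2.84 and 2.99 CPM in DMSO libraries. All 5 libraries of 50 µM lay above the DMSO mean, and the groups overlapped. The log2 fold change was 0.42 ± 0.17 (SE), with an unadjusted p of 0.0221 and an adjusted p of 0.533 by edgeR. Hspa1b, the near-identical copy, had 7.99, 12.1, 11.7, 10.3 and 13.8 CPM in 50 µM libraries at 3 h, against 14.2, 13.2, 12.8, 11.7 and 12.7 CPM in DMSO libraries. Its estimate had the other sign, -0.21 ± 0.12, with an adjusted p of 0.705. Summed over the 2 copies, the level was 15.9 ± 2.76 CPM in 50 µM libraries and 16.4 ± 1.49 CPM in DMSO libraries (SD, n = 5 each), with Hspa1a making up 29.8% ± 3.7 of the sum in 50 µM libraries and 21.2% ± 2.4 in DMSO libraries. At 48 h the estimates at 50 µM over DMSO were -0.34 ± 0.24 for Hspa1a and -0.20 ± 0.11 for Hspa1b, with adjusted p-values of 0.612 and 0.472.

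Hspb1 was the gene nearest to a call at 50 µM. At 24 h it had 28.4, 26.7, 27.4, 27.4 and 24.0 CPM in 50 µM libraries, against 40.1, 32.4, 28.8, 30.5 and 28.5 CPM in DMSO libraries. Every 50 µM library lay below every DMSO library, which was so for 1 of the 10 genes, lower, and for 1.31% of 16512 genes. The log2 fold change was -0.26 ± 0.09, with an adjusted p of 0.239. Among the alternatives described below, only the replicate number as a block gave a call at 24 h. At 48 h Hspb1 had 39.8, 46.9, 43.9, 41.1 and 40.5 CPM in 50 µM libraries, against 60.8, 54.3, 45.4, 51.5 and 53.2 CPM in DMSO libraries. The groups overlapped only through replicate 2 of 50 µM and replicate 3 of DMSO. The log2 fold change was -0.32 ± 0.08 with an unadjusted p of 0.000784 and an adjusted p of 0.0615. Without DMSO replicate 3 at 48 h the adjusted p was 0.018, without the filter on low counts 0.0173 and by DESeq2 0.0116, while without each other library it reached up to 0.178. At 48 h, 3 of 5 macrophage markers were called lower at 50 µM, where 1.00% of all genes were called in either direction. Their summed levels were 88.0 to 140.2 CPM in 50 µM libraries and 131.0 to 177.5 CPM in DMSO libraries. Of the endothelial markers, 1 of 5 was lower, with sums of 176.1 to 215.7 CPM in 50 µM libraries and 203.1 to 273.8 CPM in DMSO libraries. No marker of either list was at 0 in a whole group, and their part in the Hspb1 values was not tested.

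Hspe1 at 48 h had 142.8, 141.9, 153.2, 132.2 and 142.0 CPM in 50 µM libraries, against 158.8, 125.0, 123.4, 121.6 and 118.3 CPM in DMSO libraries. Apart from DMSO replicate 1, every DMSO library lay below every 50 µM library. The log2 fold change was 0.14 ± 0.08 with an adjusted p of 0.482. Without DMSO replicate 1 the adjusted p was 0.024, and without each other library it reached up to 0.669. Its mitochondrial partner Hspd1 averaged 276.3 ± 9.82 CPM in 50 µM libraries and 268.0 ± 14.5 CPM in DMSO libraries at 48 h (SD, n = 5 each), with overlapping groups. Hspd1 and Hspe1 overlap on opposite strands, and the labels do not state that strand was kept, so reads of the shared bases cannot be told apart.

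At 10 µM, 0 of the 10 genes were called at 3, 24 or 48 h, where 0% of 16654, 16529 and 16725 genes were called. None of the 10 had an unadjusted p below 0.05 by edgeR, as did 329, 494 and 438 of all genes, and DESeq2 called 0 of the 10 and 0 genes in all at each time. The largest estimate was 0.26 ± 0.19 for Hspa1a at 3 h. Its libraries held 4.30, 3.22, 6.34, 3.19 and 4.01 CPM at 10 µM, against the DMSO values given above, with replicate 3 highest and the groups overlapping.

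Between the doses, 0 of the 10 genes were called at 3 and 24 h, where 0% of 16702 and of 16587 genes were called. At 48 h 0 of 10 were called too, where 0.921% of 16505 genes were called. The number at an unadjusted p below 0.05 was 0, 1 and 3 at 3, 24 and 48 h by edgeR, beside 737, 923 and 1872 of all genes. DESeq2 called 0, 0 and 2 of the 10, beside 8, 36 and 352 of all genes. At 48 h Hspb1 averaged 42.5 ± 2.92 CPM at 50 µM and 50.8 ± 5.12 CPM at 10 µM, and its log2 fold change was -0.26 ± 0.07 with an adjusted p of 0.0836. Without replicate 4 of 10 µM the adjusted p for Hspb1 was 0.0193. Hspe1 had 131.2, 129.1, 126.2, 113.1 and 131.0 CPM in 10 µM libraries at 48 h, all below the 50 µM libraries, which was so for 1 of 10 genes, higher at 50 µM, and for 1.36% of 16505 genes. Its log2 fold change of 50 µM over 10 µM was 0.18 ± 0.05, with an adjusted p of 0.0998. DESeq2 called both, Hspb1 at an adjusted p of 0.0435 and Hspe1 at 0.0473. For Hspa1b the value was -0.33 ± 0.12 with an adjusted p of 0.234.

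Whether the BPS response differed between culture times was tested as an interaction over all 45 libraries. None of the 10 genes was called for the 10 µM response between 24 and 3 h, between 48 and 3 h, or between 48 and 24 h, where 0% of 18432 genes were called in each. For the 50 µM response 0 of 10 were called in each of the 3 contrasts, where 0%, 0.0922% and 0% of 18432 genes were called in the same order. DESeq2 called 0 of the 10 in all 6 contrasts. Of all genes it called 64 for the 50 µM response between 48 and 3 h and 0 in each other contrast. At an unadjusted p below 0.05, edgeR gave 0 of the 10 in each 10 µM contrast, beside 431, 529 and 438 of all genes. In those of 50 µM it gave 1, 2 and 0 of the 10, beside 1212, 1538 and 640 of all genes. The larger values were those of Hspa1a, whose 50 µM response was lower by 0.67 ± 0.33 at 24 h and by 0.76 ± 0.33 at 48 h than at 3 h on the log2 scale (adjusted p-values 0.753 and 0.529).

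The chaperone lists hold genes other than the 10. Among them, calls at 50 µM over DMSO at 3, 24 and 48 h were confined to the list of the endoplasmic reticulum (ER). It holds 17 genes, chaperones and related genes with Xbp1 among them. Lists were chosen with earlier results of these data known, so these calls are descriptions and not independent support. Over all genes tested, 0.0538%, 0.375% and 1.00% were called at 3, 24 and 48 h. At 3 h, 2 of 17 rose, Xbp1, which encodes an activator of the unfolded protein response, by 0.32 ± 0.05 and Hspa5, the HSP70 of the endoplasmic reticulum (BiP), by 0.26 ± 0.05, both at an adjusted p of 0.025. Hspa5 averaged 609.0 ± 35.6 CPM in 50 µM libraries and 509.2 ± 8.65 CPM in DMSO libraries at 3 h (SD, n = 5 each), while Hspa8 spanned 681.3 to 760.9 CPM in 50 µM libraries and 702.0 to 732.5 CPM in DMSO libraries. At 48 h, 1 of 17 rose, the HSP40 gene Dnajb9, by 0.30 ± 0.07 (adjusted p = 0.0487). At 24 h 0 of 17 were called. Of 30 cytosolic partners of HSP70 and HSP90, 8 subunits of the cytosolic chaperonin, 10 mitochondrial chaperones and proteases, 4 heat shock factor genes and 6 or 7 other small heat shock proteins tested, 0 were called at 3, 24 and 48 h. Their medians at 3 h ran from 0.004 for the chaperonin to 0.069 for the mitochondrial list, beside 0.164 for the ER list and 0.004 over all genes tested.

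Most of the 10 genes were called at 24 and 48 h over 3 h, as were many of all genes tested. In DMSO cultures at 24 h over 3 h, 7 of the 10 were called, where 40.2% of 16536 genes were called. Of these 3 rose, where 20.0% of genes did, and 4 fell, where 20.1% did. Hsph1, Hspa8 and Hspb1 rose, and Hspa1b, Hspa1a, Hsp90aa1 and Hsp90ab1 fell. The median of the 10 genes was -0.05, beside -0.01 over all genes. At 48 h over 3 h, 8 of the 10 were called (4 higher, 4 lower), where 49.3% of 16850 genes were called, 24.5% higher and 24.8% lower. At 48 h over 24 h, 2 were called, Hspb1 higher and Hsph1 lower, where 16.0% of 16694 genes were called, 9.44% higher and 6.55% lower. The comparisons with 3 h share its 5 libraries. With a library left out, each of them gave 5 to 8 calls among the 10 genes. Whether the 10 genes were called more often than other genes was not tested.

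**Figure D3:**
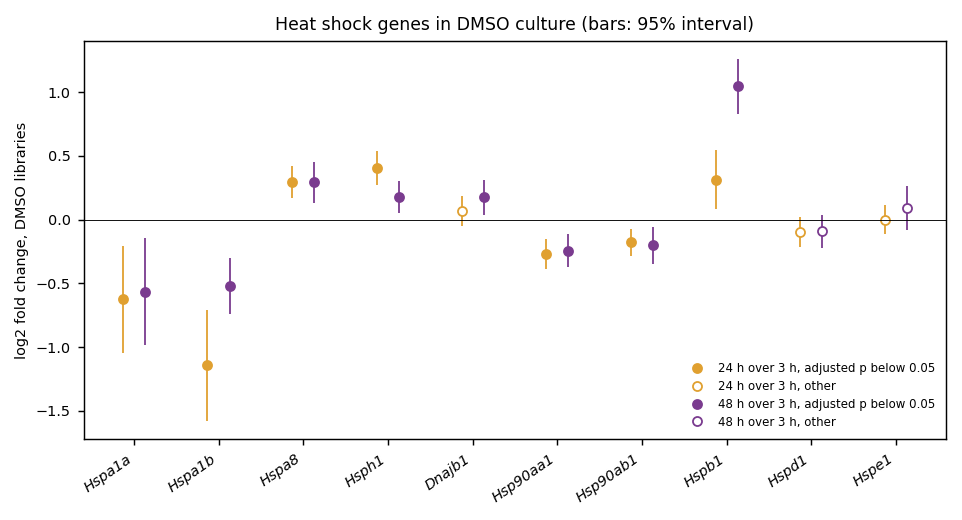
Log2 fold change in DMSO libraries (y axis) of 24 h over 3 h and of 48 h over 3 h for each gene (x axis), with bars for the 95% interval and filled points for an adjusted p below 0.05. Hspb1 at 48 h was highest, at 1.05, and Hspa1b at 24 h lowest, at -1.14.

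Hspa1b fell at 24 h. It had 8.91, 7.06, 5.75, 4.54 and 3.06 CPM in DMSO libraries at 24 h, against 14.2, 13.2, 12.8, 11.7 and 12.7 CPM at 3 h. The groups did not overlap, and the log2 fold change was -1.14 ± 0.20 (adjusted p = 0.000409). At 48 h it had 7.81, 9.37, 10.5, 8.17 and 9.07 CPM, all below the 3 h libraries, with a log2 fold change of -0.52 ± 0.10 against 3 h (adjusted p = 0.0005). The estimate at 48 h over 24 h was 0.61 ± 0.21 with an adjusted p of 0.0647. It was 0.0352 by DESeq2, 0.00399 in a fit of all 45 libraries and 0.0121 without replicate 1 at 24 h. Its copy Hspa1a fell to 2.28 ± 0.57 CPM at 24 h and 2.37 ± 0.54 CPM at 48 h, against 3.51 ± 0.68 CPM at 3 h (SD, n = 5 each), by 0.62 ± 0.20 (adjusted p = 0.0178) and by 0.56 ± 0.20 (adjusted p = 0.0257) on the log2 scale, with overlapping groups. The call of Hspa1a at 24 h was lost without replicate 4 at 24 h or replicate 1 at 3 h (adjusted p up to 0.0629). The call at 48 h was lost without replicate 1 or 3 at 3 h or without replicate 2, 4 or 5 at 48 h (up to 0.0799). Summed over both copies the level was 8.14 ± 2.68 CPM at 24 h and 11.4 ± 1.33 CPM at 48 h, against 16.4 ± 1.49 CPM at 3 h. The summed epidermal markers ran from 152.8 to 363.8 CPM at 24 h and from 517.7 to 856.8 CPM at 48 h, against 263.5 to 494.2 CPM at 3 h. Of the 6 epidermal markers 2 rose and 2 fell at 24 h over 3 h, where 20.0% of all genes rose and 20.1% fell. None of these markers was at 0 in a whole group, and their part in the Hspa1b values was not tested.

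Hspa8, Hsph1 and Dnajb1 had positive estimates at both 24 and 48 h over 3 h in DMSO libraries. Hspa8 had 791.3, 863.6, 817.3, 908.8 and 1038.2 CPM in DMSO libraries at 24 h, against 732.5, 702.0, 723.2, 730.5 and 710.2 CPM at 3 h, with every 24 h library above every 3 h library. It rose by 0.29 ± 0.06 (adjusted p = 0.000438), and by 0.29 ± 0.08 at 48 h over 3 h (adjusted p = 0.00449), again without overlap. Hsph1, the HSP110 that exchanges nucleotide on HSP70, had 79.0, 92.4, 99.6, 102.1 and 103.6 CPM at 24 h, against 77.1, 68.7, 67.7, 72.9 and 73.4 CPM at 3 h. It rose by 0.405 ± 0.066 (adjusted p = 4.05e-05), without overlap. Hsph1 then fell at 48 h over 24 h by 0.24 ± 0.07 (adjusted p = 0.0311), to 80.9 ± 3.67 CPM at 48 h, against 95.3 ± 10.1 CPM at 24 h, a call lost without replicate 2, 3, 4 or 5 at 24 h or replicate 2 or 4 at 48 h (adjusted p up to 0.0952). Its rise of 0.17 ± 0.06 at 48 h over 3 h (adjusted p = 0.0214) was lost without replicate 2 or 3 at 3 h (up to 0.0616). Dnajb1 had 65.1, 73.9, 77.8, 73.2 and 68.3 CPM at 48 h, against 61.3, 65.3, 68.5, 65.2 and 58.1 CPM at 3 h. Its rise of 0.17 ± 0.07 (adjusted p = 0.036) was lost without replicate 2, 3 or 4 at 48 h or replicate 1, 2, 4 or 5 at 3 h (up to 0.107). At 24 h over 3 h the value of Dnajb1 was 0.07 ± 0.06, with an adjusted p of 0.349.

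Both HSP90 genes fell. Hsp90aa1 had 285.4, 289.6, 303.9, 313.9 and 344.2 CPM in DMSO libraries at 24 h, against 399.9, 372.9, 334.4, 374.6 and 370.7 CPM at 3 h. The groups overlapped through replicate 5 at 24 h and replicate 3 at 3 h, and the log2 fold change was -0.27 ± 0.06 (adjusted p = 0.000604). At 48 h the value was -0.24 ± 0.06 against 3 h (adjusted p = 0.00293), without overlap. Hsp90ab1 averaged 2383.5 ± 102.5 CPM at 24 h and 2334.6 ± 148.0 CPM at 48 h, against 2691.8 ± 160.1 CPM at 3 h (SD, n = 5 each). It fell by 0.18 ± 0.05 at 24 h (adjusted p = 0.00879) and by 0.20 ± 0.07 at 48 h (adjusted p = 0.0223), the second of which was lost without replicate 1 at 3 h or replicate 4 or 5 at 48 h (up to 0.0669). The groups of Hsp90ab1 overlapped in both comparisons.

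Hspb1 rose throughout. It had 60.8, 54.3, 45.4, 51.5 and 53.2 CPM at 48 h, against 21.8, 23.9, 32.5, 25.3 and 25.3 CPM at 3 h, without overlap, a log2 fold change of 1.05 ± 0.10 (adjusted p = 2.61e-07). At 48 h over 24 h it rose by 0.72 ± 0.10 (adjusted p = 0.000122), every 48 h library above every 24 h library, which was so for 1 of the 10 genes and for 7.61% of 16694 genes in that direction. At 24 h over 3 h it rose by 0.31 ± 0.11 (adjusted p = 0.0279), with overlapping groups, a call lost without replicate 1 or 2 at 24 h or replicate 1, 2, 4 or 5 at 3 h (adjusted p up to 0.0835). At 24 h over 3 h, 2 of the 10 genes were higher without overlap, where 14.4% of 16536 genes were, and 1 was lower, where 13.2% were. At 48 h over 3 h, 2 were higher and 2 lower without overlap, where 18.4% and 17.9% of 16850 genes were.

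The mitochondrial pair did not pass the test. Hspd1 averaged 268.4 ± 20.5 CPM at 24 h and 268.0 ± 14.5 CPM at 48 h, against 286.5 ± 18.2 CPM at 3 h. Its log2 fold changes were -0.10 ± 0.06 and -0.09 ± 0.06 (adjusted p = 0.19 and 0.23), with 95% intervals from -0.21 to 0.02 and from -0.22 to 0.04. Without replicate 5 at 24 h the adjusted p of Hspd1 at 24 h was 0.0374. Hspe1 had 118.8 to 125.2 CPM at 24 h and 118.3 to 158.8 CPM at 48 h, against 112.3 to 135.6 CPM at 3 h. Its 95% intervals ran from -0.11 to 0.11 at 24 h and from -0.08 to 0.26 at 48 h.

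The other chaperone lists were read at 24 h over 3 h against the same shares of all genes, 20.0% higher and 20.1% lower. All 17 genes of the ER list rose, with a median of 0.40, and at 48 h over 3 h 16 of 17 rose, where 24.5% of all genes did. Of 7 other small heat shock proteins tested 4 rose, with a median of 1.42. Cryab, the muscle and lens chaperone alpha-B-crystallin, reached 37.0 ± 7.74 CPM at 24 h and 61.4 ± 13.0 CPM at 48 h, against 13.3 ± 1.57 CPM at 3 h, a rise of 1.48 ± 0.13 at 24 h (adjusted p = 3.1e-07). Hspb2 and Hspb3, small heat shock proteins of muscle, rose by 1.72 ± 0.16 and 2.27 ± 0.23 (adjusted p = 3.98e-08 and 7.22e-08), and Hspb7, another of muscle, by 1.42 ± 0.48 (adjusted p = 0.0237), at 0.896 CPM at 24 h, against 0.32 CPM at 3 h. All 7 skeletal muscle markers rose at 24 h over 3 h, with sums of 2101.9 to 3249.2 CPM at 24 h, against 1200.7 to 1342.0 CPM at 3 h. No muscle marker was at 0 in a whole group, and their part in the small heat shock protein values was not tested. Of the cytosolic chaperonin 6 of 8 subunits fell, by 0.18 ± 0.04 for Cct4 and 0.16 ± 0.04 for Cct2 (adjusted p = 0.00256 and 0.00468). Of the mitochondrial list 4 of 10 fell, Trap1, the mitochondrial HSP90, by 0.30 ± 0.05 (adjusted p = 8.43e-05) and Hspa9, the mitochondrial HSP70, by 0.16 ± 0.05 (adjusted p = 0.00747).

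**Figure D4:**
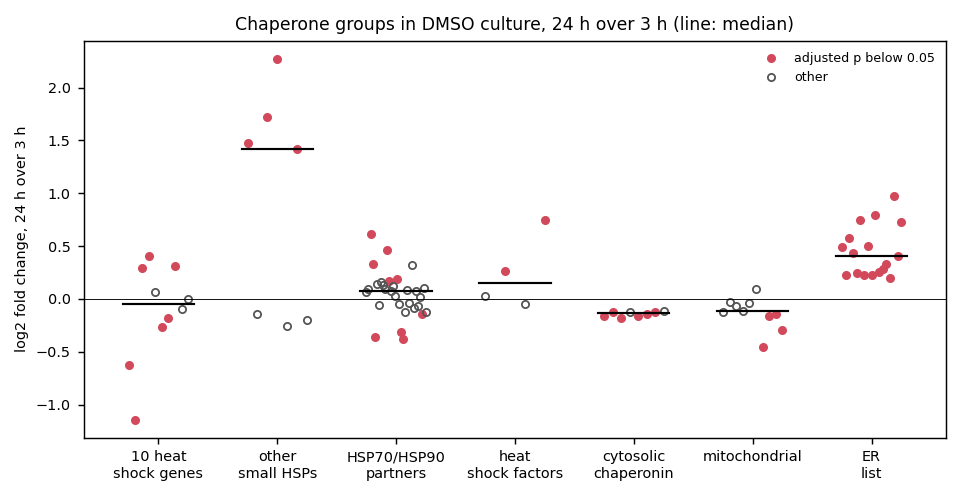
Log2 fold change in DMSO libraries at 24 h over 3 h (y axis) for every tested gene of 7 groups (x axis), with filled points for an adjusted p below 0.05 and a line at the median. All 17 genes of the ER list lie above 0, the 10 heat shock genes have a median of -0.05, and the other small heat shock proteins reach the highest values.

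Of 30 cytosolic partners of HSP70 and HSP90, 5 rose and 4 fell at 24 h over 3 h, with a median of 0.08, where 20.0% of all genes rose and 20.1% fell. The HSP70 exchange factors Bag2 and Bag3 rose by 0.62 ± 0.08 (adjusted p = 2.59e-06) and 0.33 ± 0.07 (adjusted p = 0.000545). Bag3 had 45.2 ± 1.98 CPM at 24 h, against 35.9 ± 3.56 CPM at 3 h (SD, n = 5 each). Hspa14, an HSP70 of the ribosome-associated complex, and Fkbp5, an HSP90 co-chaperone of steroid receptors, fell by 0.38 ± 0.07 and 0.31 ± 0.06 (adjusted p = 0.000113 and 0.000181). Of the heat shock factor genes Hsf1 rose by 0.26 ± 0.05 (adjusted p = 0.000414), to 76.2 ± 2.20 CPM at 24 h, against 63.6 ± 3.41 CPM at 3 h, and Hsf4, at 2.55 ± 0.31 CPM at 24 h and 1.52 ± 0.22 CPM at 3 h, by 0.75 ± 0.20 (adjusted p = 0.00585).

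Within groups, some of the 10 genes varied together. After log2 CPM was centred on each group's mean, the 45 libraries gave Pearson r = 0.78 for Hsph1 and Hsp90aa1, the highest of all pairs. Hsp90aa1 and Hspd1 gave 0.64, Hspa8 and Hsp90ab1 0.62, and Hspa8 and Hspd1 0.62. The copies Hspa1a and Hspa1b gave 0.35 and the mitochondrial partners Hspd1 and Hspe1 0.18. Hsp90aa1 and Hspb1 gave -0.47, the lowest. The libraries of a group share their scaling, depth and cell makeup, and these values are descriptions.

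**Figure D5:**
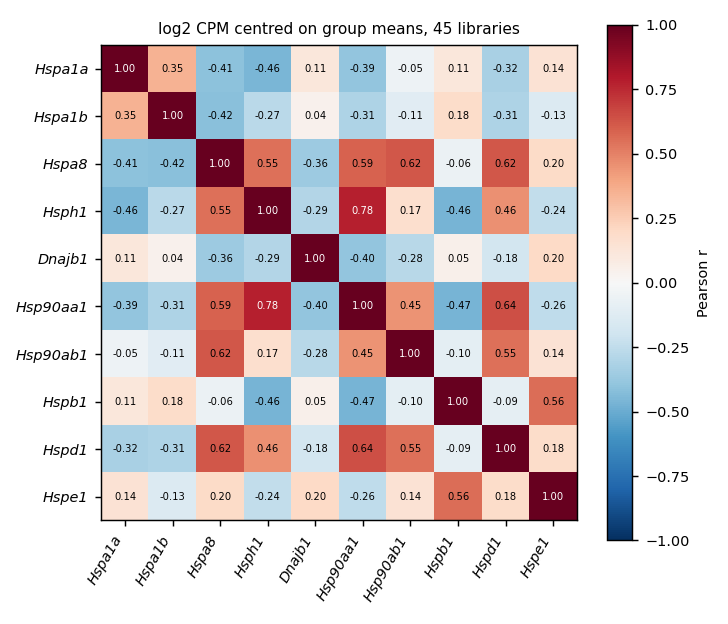
Pearson r between the 10 genes (rows and columns) over 45 libraries, each gene's log2 CPM centred on the mean of its group. The pair Hsph1 and Hsp90aa1 has the highest value, 0.78, and Hsp90aa1 and Hspb1 the lowest, -0.47.

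The genes with the most similar within-group pattern, among those with at least 5 CPM on average, were named by the same r over the 45 libraries. For Hspa1b they were Igsf9 (0.676), Lama5 (0.672), Aqp3 (0.671), Krt17 (0.662) and Tfap2c (0.654). The summed epidermal markers gave r = 0.59 with Hspa1b. For Hspa8 they were Skp1a (0.904), Rsl1d1 (0.855), Naca (0.847), Ywhae (0.835) and Gdi2 (0.82), and for Hsp90aa1 Psmd1 (0.831), Hspa4 (0.806), Smarca5 (0.787) and Crnkl1 (0.785). For Hspd1 they were Capza2 (0.755), G3bp1 (0.752), Cct8 (0.751), Rars (0.741) and Paics (0.731). Summed skeletal muscle markers gave 0.53 with Hspa8 and 0.52 with Hspd1, and cell cycle genes 0.55 with Hsp90aa1. With Hspb1, erythroid markers gave 0.57 and forelimb mesenchyme markers -0.56. The macrophage and endothelial markers, set beside Hspb1 at 48 h above, gave 0.28 and -0.0 with it.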

How the data were processed

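Poly-A RNA was sequenced in 45 libraries, with STAR 2.5, HTSeq 0.6.1, CASAVA 1.8, DESeq2 (version listed as 2) and the build mm10 in the submitters' processing notes, which give no order or roles. Per the file headers, the authors deposited 9 tables of raw read counts per gene, not normalised, with 10 libraries each. They were joined by gene identifier into 34994 genes, and 0 of 1319925 control counts present in several tables differed. The authors also deposited, in the same tables, FPKM values (per kb and M reads), scaled counts (a normalised signal), log2 fold changes and p-values, which were not used here. Groups came from the sample titles. No replicate pair agreed within sampling noise (chi-square per degree of freedom at least 4.42), and a count of 3 reads is 0.13 to 0.197 CPM, which covers counting error only.

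Each 2-group comparison was fitted on its own 10 libraries with edgeR 4.0.16 in R 4.3.3 (TMM, filterByExpr, robust quasi-likelihood), and interactions on all 45 libraries and 18432 genes. The test was checked on simulated data. CPM uses TMM factors over 45 libraries, and log2 CPM a prior count of 2. The SE of a log2 fold change came from its size and F statistic, and 95% intervals from that SE. Alternatives were RLE scaling, no filter, DESeq2 1.42.0, the replicate number as a block, 1 fit of 45 libraries and leaving out each library. The members and lists were chosen with earlier results of these data known. Named genes were the 10 members, up to 4 called genes of each list per comparison by smallest adjusted p, 5 most similar genes for each of Hspa1b, Hspa8, Hsp90aa1 and Hspd1, and tissue markers. The text names the list genes that bear on the results. For Hsp90aa1, 1 of the most similar genes is not reported here.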

Additional observations from a re-analysis of the deposited data

Results flagged for a closer look

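In 6 of 90 sets of 5 values, the 10 genes each in 9 groups that share their libraries, 1 library lay far from the other 4, where chance gives about 1 in 20. Hsp90aa1 stood at 354.6 CPM in replicate 5 of 50 µM at 24 h, against 297.7 to 301.1 CPM in the others. Hspb1 stood at 31.5 CPM in replicate 3 of 50 µM at 3 h, against 22.9 to 24.9 CPM. Hspe1 stood at 158.8 CPM in DMSO replicate 1 at 48 h, against 118.3 to 125.0 CPM, and at 113.1 CPM in replicate 4 of 10 µM at 48 h, against 126.2 to 131.2 CPM. Hspa1a stood at 1.6 CPM in replicate 5 of 10 µM at 48 h, against 2.32 to 2.52 CPM, and Dnajb1 at 59.5 CPM in replicate 5 of 10 µM at 24 h, against 66.1 to 68.0 CPM.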

How the results depend on the processing

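With all libraries kept, 824 single-gene values kept their side of the threshold under the alternatives, 2 lost and 12 gained a call, and 0 calls reversed direction. The direction of values without a call was not compared. With 1 library left out the numbers were 2364, 31, 5 and 0. At 50 µM over DMSO, the replicate block at 24 h gave 1 call against 0 (Hspb1, adjusted p 0.0306), and no filter and DESeq2 at 48 h 1 each (Hspb1). At 50 µM over 10 µM at 48 h, no filter, the block and DESeq2 gave 2 each (Hspb1 lower, Hspe1 higher). Leaving out a library, calls among the 10 genes ran from 0 to 1 for both 50 µM comparisons at 48 h, from 5 to 8 for 24 h and for 48 h over 3 h and from 1 to 3 for 48 h over 24 h. In the other comparisons they stayed at 0. No label ties same-numbered libraries. Their deviations correlated between -0.108 and 0.216, above 0.1 in 0 to 4 of 5 pairs per comparison. As a hint from the data, 2 to 5 of 5 libraries correlated best with their own number at the same time (all 5 for 50 over 10 µM at 24 h), and 0 to 3 between times. By chance about 1 of 5 would. The main tests did not use the replicate number, so a tie between same-numbered libraries would be left out of them. The block also ended the calls of Hspb1 at 24 h over 3 h (0.059) and Hsph1 at 48 h over 3 h (0.0591) and gave one to Hspa1b at 48 h over 24 h (0.0298).

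Over all genes, 50 µM over DMSO had 9, 62 and 167 calls at 3, 24 and 48 h. No filter gave 60, 153 higher plus 90 lower, and 258, the block 256, 949 and 70, DESeq2 41, 270 and 426, and 1 fit of 45 libraries 16, 104 and 477. For 50 over 10 µM, with 0, 0 and 152 calls, no filter gave 13, 41 and 469, the block 0, 181 and 328, DESeq2 8, 36 and 352, and 1 fit 1, 10 and 136. RLE gave 2 at 24 h. The counts also moved for 10 µM at 3 h without the filter (1 against 0), DMSO 48 over 24 h in 1 fit (4063 against 2670), and the 50 µM response between 48 and 3 h (69 by the block and 64 by DESeq2, against 17) and between 24 and 3 h (1 by the block, against 0). The cause of these shifts was not tested. Depth limits Hspa1a and Hspa1b most.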

Other observations

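In DMSO cultures all 15 cell cycle genes listed fell at 24 h over 3 h, where 20.1% of all genes did. They were also lower at 48 h over 3 h, where 24.8% of all genes were. Among them the mitotic cyclin gene Ccnb1 fell by 1.22 ± 0.06 (adjusted p = 9.82e-13) at 24 h. Top2a, a DNA topoisomerase of dividing cells, fell by 1.08 ± 0.06 (adjusted p = 1.18e-11) at 24 h. Of 16 immediate early genes, 2 rose and 6 fell at 24 h over 3 h, where 20.0% of all genes rose and 20.1% fell. Among them Atf3, a stress-induced transcription factor, fell by 1.74 ± 0.12 (adjusted p = 2.99e-10). At 48 h over 24 h 7 of these 16 rose, where 9.44% of all genes did, Btg2 by 0.61 ± 0.08 (adjusted p = 5.08e-05) and Junb by 0.76 ± 0.14 (adjusted p = 0.00159). At 50 µM over DMSO 0 genes of either list were called at 3, 24 and 48 h, where 0.0538%, 0.375% and 1.00% of all genes were.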
